A study of Mus musculus with 12 samples.

Results

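CpG-dense hypomethylated regions are stretches of the mouse genome in which CpG sites lie close together and in which lineage-negative bone marrow progenitors of Dnmt1 mutant mice had less DNA methylation than those of wild-type mice. They were taken from the authors' list of 35439 hypomethylated regions by 1 property, at least 5 CpGs per 100 bp, which 1348 of the 35439 regions (3.80%) met. The listed regions were selected on the measured loss itself, by the deposited levels, so that no member had lost less than 20 percentage points. The sizes of the loss are therefore given as a description.

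The groups were lin- bone marrow progenitors of BALB/c mice with a mutant Dnmt1 and of wild-type BALB/c mice, with 3 replicate columns per genotype. Lineage depletion removes marrow cells that carry surface markers of mature blood lineages and leaves stem and progenitor cells enriched. In the labels the mutant genotype is dnmt1-/-, whereas the series design text describes a specific mutation made in mice after structural analysis of hypomorphic fish Dnmt1 proteins, so the allele is called mutant here. Age, sex and the number of animals per sample are not given in the labels, and nothing states whether separate animals gave the replicates, whose spread may thus be technical. The cell type could not be checked against marker genes in methylation data.

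In mammals DNA methylation sits mainly on the cytosine of CpG pairs. Dnmt1 copies the mark onto the new strand after DNA replication, so that a weakened enzyme leaves sites unmethylated as cells divide. CpGs are rare in most of the mouse genome and gather in CpG islands, of which those at the starts of housekeeping genes are mostly unmethylated. Genes of the germline are a known exception: many of their CpG-rich starts are methylated in body cells, and are silent there.

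The regions were short. Their median length was 192 bp (range 27 to 2168), against 736 bp (201 to 6192) in the other 34091 listed regions. The number of CpGs had the same median of 12 in both sets, and ranged from 10 to 138 in the dense and from 10 to 142 in the other regions. Of the dense regions, 549 (40.7%) held exactly 10 CpGs, the fewest that the list contains, and 114 (8.46%) held 30 or more. The median density was 6.17 CpGs per 100 bp and the highest 44.4, in a region of 12 CpGs on chromosome 10 that the list assigns to Map2k2. Within 1 kb of each other the regions formed 1262 groups, of which 64 had more than 1 region and together held 150 regions.

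As examples of dense regions at gene starts, where 153 of the 1348 lie, pieces of 6 regions at the starts of germline genes are printed. Each is the part of the region within the 250 bases upstream of the annotated start in the RefSeq promoter table (GRCm38.p6, the assembly that mm10 names), 5′ to 3′ on the strand of the gene, with every CpG in capitals. The piece at Sycp2, which encodes a protein of the synaptonemal complex, is chr2:178407659-178407908, minus strand. It holds 7 CpGs in 250 bases, below the density limit of the set, since most of the CpGs of that region lie downstream of the start. The piece at Tex14, needed for the bridges between germ cells, is chr11:87404815-87405064, plus strand, with 17 CpGs in 250 bases. The piece at Rbmxl2, a testis RNA-binding protein, is chr7:107209253-107209444, plus strand, with 19 CpGs in 192 bases. The piece at Mael, of the piRNA pathway, is chr1:166238745-166238905, minus strand, with 14 CpGs in 161 bases. The piece at Syce1, another synaptonemal complex protein, is chr7:140787855-140787978, minus strand, with 10 CpGs in 124 bases. The piece at Tex12, likewise of that complex, is chr9:50561269-50561440, minus strand, with 19 CpGs in 172 bases.
Sycp2: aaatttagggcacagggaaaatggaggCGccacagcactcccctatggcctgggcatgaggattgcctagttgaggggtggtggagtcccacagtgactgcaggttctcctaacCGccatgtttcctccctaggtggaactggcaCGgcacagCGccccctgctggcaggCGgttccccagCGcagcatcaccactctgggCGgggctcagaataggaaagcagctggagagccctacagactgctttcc
Tex14: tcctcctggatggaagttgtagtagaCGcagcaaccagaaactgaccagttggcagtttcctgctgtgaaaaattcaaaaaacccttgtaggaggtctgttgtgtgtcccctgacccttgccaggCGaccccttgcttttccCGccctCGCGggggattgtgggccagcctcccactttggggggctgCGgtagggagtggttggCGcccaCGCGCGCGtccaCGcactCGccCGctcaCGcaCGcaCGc
Rbmxl2: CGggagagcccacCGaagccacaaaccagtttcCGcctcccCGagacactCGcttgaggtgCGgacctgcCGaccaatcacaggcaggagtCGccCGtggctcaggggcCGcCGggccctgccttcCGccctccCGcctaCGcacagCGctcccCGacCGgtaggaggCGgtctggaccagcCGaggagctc
Mael: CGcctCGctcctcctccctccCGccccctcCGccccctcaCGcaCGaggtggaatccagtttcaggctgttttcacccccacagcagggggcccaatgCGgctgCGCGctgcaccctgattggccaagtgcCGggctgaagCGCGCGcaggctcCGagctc
Syce1: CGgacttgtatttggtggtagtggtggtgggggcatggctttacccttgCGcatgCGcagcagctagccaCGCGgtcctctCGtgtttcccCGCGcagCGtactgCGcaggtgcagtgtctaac
Tex12: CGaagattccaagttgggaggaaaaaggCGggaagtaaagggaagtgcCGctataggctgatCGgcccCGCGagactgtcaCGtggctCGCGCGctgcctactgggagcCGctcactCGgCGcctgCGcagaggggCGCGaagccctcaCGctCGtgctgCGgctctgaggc

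Over the 1348 dense regions the mean methylation level was 39.4%, 40.4% and 41.3% in mutant replicates 1 to 3, against 72.6%, 73.2% and 72.5% in wild-type replicates 1 to 3. The means were 40.3 ± 0.946% in mutant and 72.7 ± 0.398% in wild-type cells (SD, n = 3 each), a difference of -32.4 percentage points, or -44.5% of the wild-type level. The median region differed by -29.6 points, and single regions by -20 to -78.9 points. All 3 mutant values were below all 3 wild-type values in 1345 of the 1348 regions, where the same held for 94.3% of all 107115 candidate regions. All 1348 regions passed limma's test as lower in the mutant (Benjamini-Hochberg adjusted p under 0.05 over all candidate regions), where 93.5% of all candidate regions did. Since the list was chosen on this loss, nothing is read from either count.

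The 3 regions in which the genotypes overlapped are named after their values were seen. The region in Thap1 on chromosome 8 had 39.4%, 36.9% and 23.0% in the mutant, against 70.1%, 63.9% and 37.9% in the wild type. The region in Dkc1 on chromosome X had 64.6%, 49.1% and 49.8% in the mutant, against 82.7%, 63.7% and 86.9% in the wild type. The third, at a 5S ribosomal RNA copy on chromosome 18 that the list calls n-R5s24, had 1.92%, 33.7% and 23.9% in the mutant, against 46.1%, 33.5% and 50.2% in the wild type. In each of these regions 1 wild-type replicate was below the others. Genes of such repeated families have near-identical copies, so the assignment of reads to the 5S copy is uncertain.

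**Figure D1:**
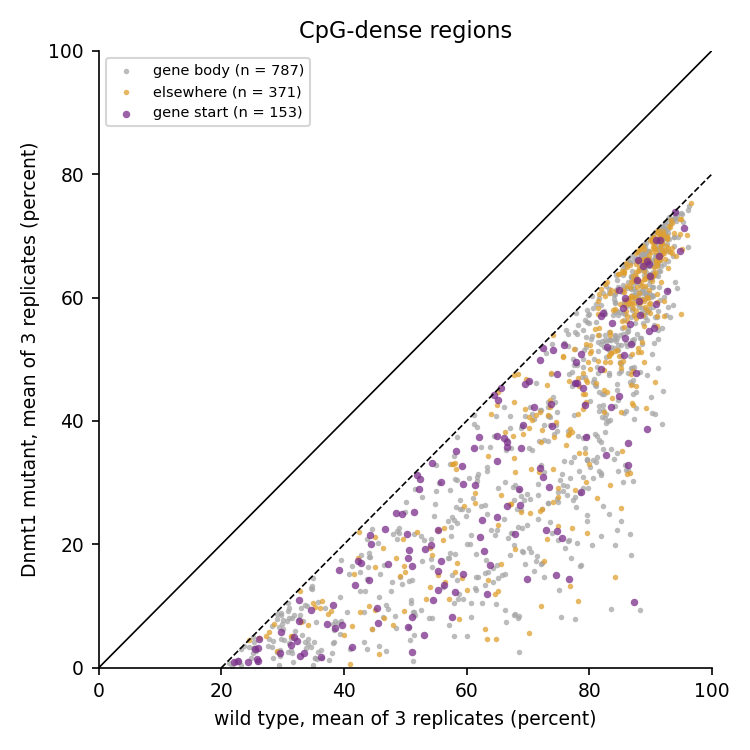
Mean level of each placed CpG-dense region in the Dnmt1 mutant (vertical axis, percent) against wild type (horizontal axis, percent), each the mean of 3 replicates, coloured by position relative to protein-coding genes. The solid line marks equal levels and the dashed line a loss of 20 points, the limit of the list, and no region lies above it. Many regions sit near the floor of the vertical axis: 181 of all 1348 had a mutant level under 10%.

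The dense regions had lower levels than the rest of the list in both genotypes. In the other 34091 regions the mean level was 46.4%, 48.7% and 51.1% in mutant replicates 1 to 3, against 76.6%, 77.0% and 77.2% in wild-type replicates 1 to 3, a difference of -28.2 points (-36.6% of the wild-type level). The dense-minus-other level was -7.02, -8.37 and -9.85 points in the mutant replicates, against -4.01, -3.85 and -4.77 points in the wild-type replicates. All 3 mutant values lay below all 3 wild-type values, and the dense regions had lost 4.21 points more than the others (difference of the differences -4.21; exact two-sided permutation test, n = 3 per group, p = 0.1, the smallest that 3 against 3 allows). The value was -2.24 points when both sets were limited to regions of 500 bp or less, and -7.11 points when both were limited to regions of 20 or more CpGs, a limit chosen after seeing the data. Both sets were selected on the same loss in these same columns, so this comparison is between 2 parts of one selected list. The p-value therefore only describes the separation of the replicates, and nothing is read from it.

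A mutant level under 10%, close to complete absence of methylation, was found in 181 dense regions (13.4%), against 653 of the other regions (1.92%). A loss of 50 points or more occurred in 108 dense regions (8.01%), against 566 of the others (1.66%). In the authors' deposited list the metilene q-value was under 0.05 in 50.2% of the dense regions, against 22.3% of the others. Part of the first contrast was present in the wild type: 215 dense regions (15.9%), against 1562 others (4.58%), had a wild-type level under 50%. The dense set also held more regions at the upper end, with a wild-type level of 90% or more in 219 (16.2%) against 2171 (6.37%) of the others.

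The level fell along the density scale in both genotypes. Between 5 and 6 CpGs per 100 bp (608 regions) it was 44.1 ± 1.302% in mutant and 75.9 ± 0.478% in wild-type cells (SD, n = 3 each, here and below). Between 8 and 10 (143 regions) it was 36.9 ± 0.535% in mutant and 70.2 ± 0.364% in wild-type cells. Between 10 and 15 (98 regions) it was 30.1 ± 0.166% in mutant and 61.9 ± 1.105% in wild-type cells. In the 29 densest regions, with 15 or more, it was 11.7 ± 0.881% in mutant and 46.1 ± 1.96% in wild-type cells. The difference stayed between -31.7 and -34.5 points over these bins and between 6 and 8, whereas it was -26.3 points in the 1604 listed regions with under 1 CpG per 100 bp.

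**Figure D2:**
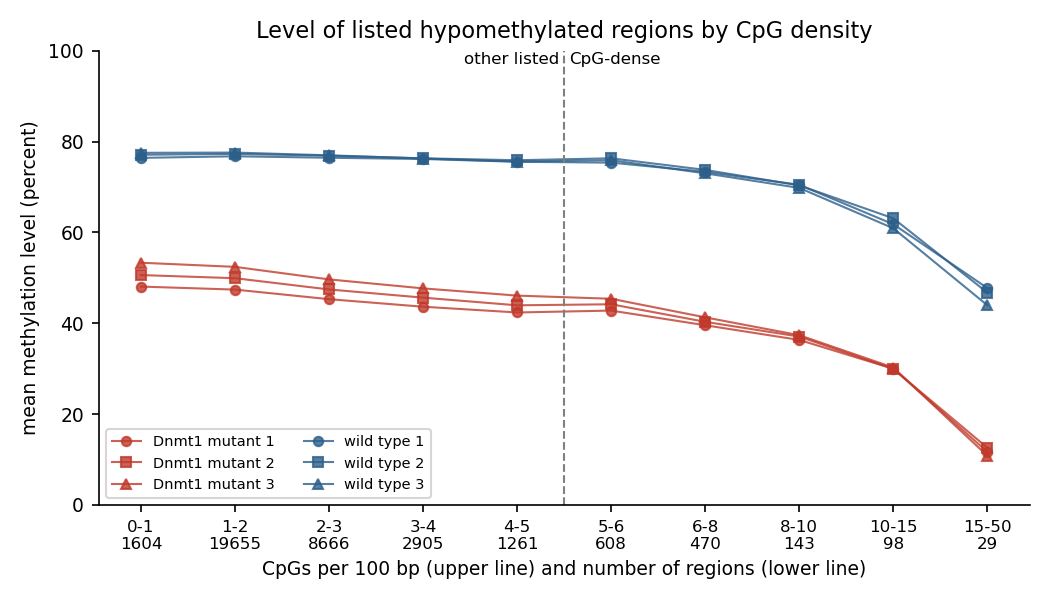
Mean methylation level (percent) of the listed hypomethylated regions in each replicate, in bins of CpG density (CpGs per 100 bp, with the number of regions under each bin). Each line is 1 replicate column and the dashed line marks the limit of 5. Both genotypes fall at high density. The 3 mutant lines, apart by 5.25 points at the left, lie within 0.304 points between 10 and 15 CpGs per 100 bp. They are 1.76 points apart in the densest bin. The wild-type lines are 1.12 points apart at the left and 3.79 points in the densest bin.

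The means over all regions of a set lay closer together between mutant replicates for the dense regions. Over the other listed regions they spanned 4.72 points, with replicate 1 lowest and replicate 3 highest, and over the dense regions 1.89 points in the same order. Replicate 1 was the lowest mutant replicate in 577 dense regions (42.8%), against 57.0% of the others. Replicate 3 was the lowest in 345 dense regions (25.6%), against 14.2% of the others. The wild-type replicates spanned 0.733 points in dense and 0.670 points in other regions. Depth and conversion kit per column are unknown, and their part in the order of the mutant replicates was not tested.

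Set against other listed regions with the same wild-type level, the dense regions had lower mutant levels in most of the range. At a wild-type level of 60 to 70%, the mutant level was 26.5 ± 0.431% in 144 dense regions, where 3911 others had 33.8 ± 2.01%. At 70 to 80% it was 36.6 ± 0.8705% in 213 dense regions, where 9240 others had 45.4 ± 2.27%. At 80 to 90% it was 54.1 ± 1.35% in 450 dense regions, where 15319 others had 58.3 ± 2.62%. At 20 to 30% the mutant levels were 3.55 ± 0.359% in 50 dense regions and 4.42 ± 0.356% in 141 others. In this lowest bin the rule of the list leaves almost no room for another value. The extra loss was -4.98 points when the other regions were reweighted to the wild-type levels of the dense ones.

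**Figure D3:**
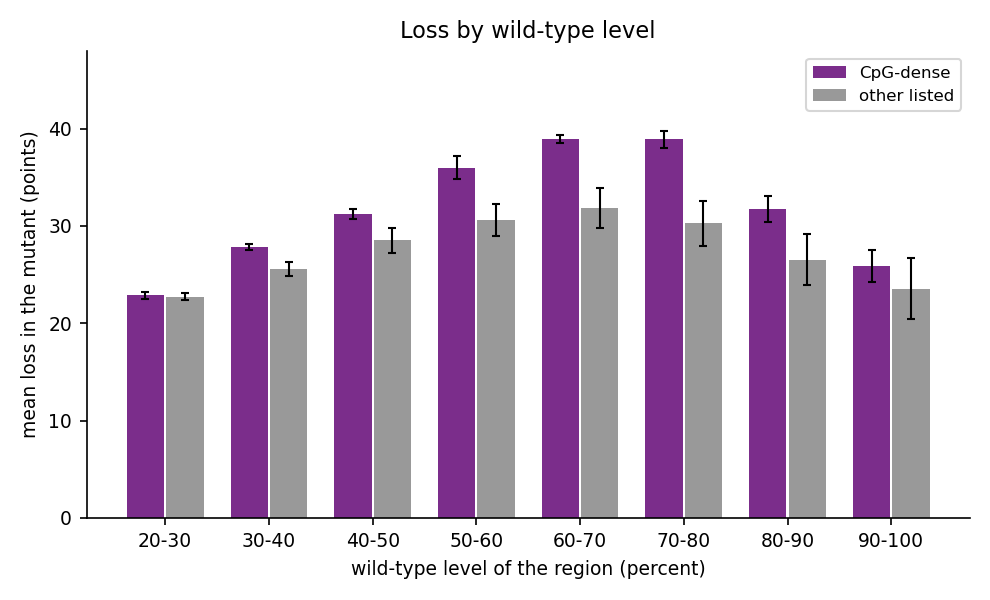
Mean loss in the Dnmt1 mutant (wild type minus mutant, percentage points) in CpG-dense (left bar) and other listed regions (right bar), by the wild-type level of the region in percent. Error bars are the SD of the mutant mean over 3 replicates. The bars are nearly level at 20-30%, and the dense bar is higher by 7.09 points at 60-70% and by 8.64 points at 70-80%.

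By position, 153 dense regions (11.4%) had a protein-coding gene start within 1 kb, 787 (58.4%) elsewhere in a protein-coding gene and 371 (27.5%) outside these genes. The remaining 37, of which 36 lie on chromosome 18 and 1 on an unplaced scaffold, could not be placed with the promoter table. Of the other listed regions 6.12% lay at starts, 54.4% in gene bodies and 37.2% elsewhere. Dense regions at starts had 30.8 ± 1.08% in mutant and 63.4 ± 1.13% in wild-type cells. Those in gene bodies had 39.5 ± 0.702% in mutant and 72.5 ± 0.351% in wild-type cells, and those elsewhere 46.3 ± 1.47% in mutant and 77.5 ± 0.678% in wild-type cells. Levels were lowest at starts and highest outside genes in both genotypes, and the mutant-minus-wild-type differences were -32.6 points at starts, -33.0 points in gene bodies and -31.2 points elsewhere. Exons, introns and UTRs were not resolved here.

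Germline genes were the list with most dense regions at gene starts. Of 35 such genes with a start in the table, 9 (25.7%) had a dense region within 1 kb of it, beside 150 of 17491 protein-coding genes (0.858%). Counting spans with 5 kb on each side, 12 of 40 (30%) had a dense region, beside 1092 of 21896 protein-coding genes (4.99%). The germline genes had a median span of 31376.5 bp, against 17149 bp over all protein-coding genes. The part of span length in the second count was not tested. The list was written with earlier results of these data in view and includes genes already known to be hypomethylated here, so the counts are a description. The median difference of its 13 regions was -35.1 points, beside -29.6 points over all dense regions.

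Meiosis genes among them covered the axis and central element of the synaptonemal complex, the structure that joins paired chromosomes. The Sycp2 region (chromosome 2, 178407242 to 178407923, 38 CpGs) had 45.4%, 33.5% and 37.4% in the mutant, against 87.9%, 89.8% and 90.4% in the wild type. The Syce1 region (chromosome 7, 140787670 to 140787976, 18 CpGs) had 50.4%, 45.4% and 49.6% in the mutant, against 84.5%, 80% and 81.3% in the wild type. The Tex12 region (chromosome 9, 50560933 to 50561438, 41 CpGs) had 84.1%, 74.4% and 55.4% in the mutant, against 96.7%, 96.8% and 93.2% in the wild type. All 3 regions were separated between the genotypes. The SD over mutant replicates was 2.73 points at Syce1, 6.06 points at Sycp2 and 14.6 points at Tex12. Tex12 kept most of its methylation in replicate 1 and much less in replicate 3.

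Of the piRNA pathway, which silences transposons in germ cells, Piwil1 and Mael had dense regions at their starts and Tdrd9 had 1 within its span. The Piwil1 region (chromosome 5, 128736103 to 128736267, 12 CpGs) had 30.7%, 38.3% and 43.4% in the mutant, against 72.7%, 83.8% and 81.8% in the wild type. The Mael region (chromosome 1, 166238642 to 166238903, 23 CpGs) had 66.5%, 44.9% and 65.7% in the mutant, against 92.4%, 90% and 90.3% in the wild type. In Tdrd9 (chromosome 12, 111998620 to 111998783, 10 CpGs) the values were 35.6%, 28.4% and 46.1% in the mutant, against 77.6%, 59.9% and 77.9% in the wild type. Mael was lowest in mutant replicate 2, and the wild-type replicates of Mael lay within a few points of each other.

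The RNA-binding genes Rbmxl2 and Dazl started from middle levels. Rbmxl2, whose region (chromosome 7, 107209251 to 107210605) spans 119 CpGs in 1354 bp, had 10.6%, 6.58% and 7.64% in the mutant, against 54.4%, 52.7% and 46.3% in the wild type. Dazl, needed for germ cell formation, had 27.9%, 17.5% and 29.2% in the mutant over 14 CpGs (chromosome 17, 50293080 to 50293326), against 50.2%, 52.1% and 46.0% in the wild type. The Tex14 region, which also covers the start of its neighbour Rad51c (chromosome 11, 87404794 to 87405223, 26 CpGs), had 32.8%, 37.5% and 33.2% in the mutant, against 83.8%, 78.8% and 85.6% in the wild type. Tex19.1, which acts in transposon control in germ cells and placenta, had 58.7%, 71.5% and 35.2% in the mutant over 14 CpGs (chromosome 11, 121145872 to 121146110), against 88.3%, 92.7% and 90.9% in the wild type. Of these, Rbmxl2 retained the smallest part of its wild-type level, having fallen by 83.8% of it.

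**Figure D4:**
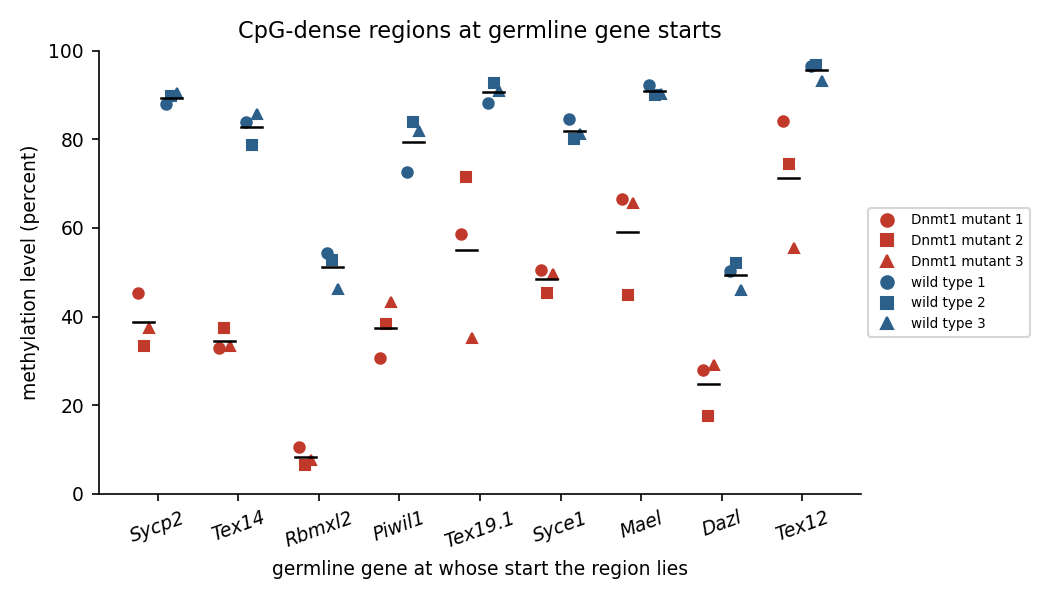
Methylation level (percent) of the CpG-dense region at the start of each of 9 germline genes, ordered by the loss. Points are single replicates of the Dnmt1 mutant (left of each pair) and wild type (right), with a marker for each replicate number, and bars are means of 3. Mutant points lie below wild-type points in all 9 genes, with wide mutant spread at Tex19.1, Mael and Tex12 and little at Rbmxl2, Tex14 and Syce1.

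In gene bodies of the germline list the largest loss was in Zfp541, a zinc finger gene of meiotic germ cells. Its region of 33 CpGs (chromosome 7, 16061522 to 16062006) had 11.6%, 14.7% and 11.6% in the mutant, against 75.6%, 78.7% and 71.1% in the wild type. The next region begins 1 bp further on (16062007 to 16062234, 17 CpGs) and had 52.4%, 63.6% and 62.9% in the mutant, against 90.8%, 89.1% and 94.6% in the wild type. Adjoining stretches of one gene thus differed by more in the mutant than in the wild type. Dmrtb1, a transcription factor of spermatogonia, had 56.8 ± 3.38% in mutant and 90.8 ± 2.7% in wild-type cells.

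Further germline genes outside the list, chosen after their values were seen, had dense regions at their starts. Meioc, which maintains meiotic prophase, had 27.0%, 22.3% and 14.5% in the mutant over 58 CpGs (chromosome 11, 102665214 to 102666360), against 64.6%, 63.1% and 59.0% in the wild type. Spaca1, a protein of the sperm acrosome, had 14.5%, 7.26% and 23.6% in the mutant over 28 CpGs (chromosome 4, 34049790 to 34050127), against 66.4%, 76.0% and 81.6% in the wild type. Rnf212, Sox30, Dmc1 and Boll had mutant means of 30.9%, 32.4%, 33.6% and 52.5%, against wild-type means of 72.5%, 72.0%, 65.0% and 86.9%. Rbm46, a germ cell RNA-binding protein, had 2 dense regions with mutant means of 1.82% and 0.905%, against 36.3% and 24.4% in the wild type.

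The start sequences were searched for CACGTG, the E-box core bound by MAX, MGA and MYC proteins, and for TCCCGC, an E2F-type element, on both strands of the 300 bp promoter windows. CACGTG was present in 2349 of 32851 windows (7.15%), in 10 of the 62 windows that a dense region overlaps (16.1%) and in 23 of the 44 windows of the germline list (52.3%). It was in 4 of the 8 germline windows that a dense region overlaps, those of Mael, Piwil1, Rbmxl2 and Tex12, and only at Tex12 within the printed piece. TCCCGC was present in 6562 windows (19.98%), in 27 of the 62 (43.5%), in 18 of the 44 germline windows (40.9%) and in 5 of the 8. The windows that dense regions overlap were themselves CpG-rich, with a median of 18 CpGs where all windows had 7, and TCCCGC contains a CpG, as does CACGTG. These matches are a description of the letters in the windows. The MAX-MGA and E2F6 complexes are known as repressors of germline genes, which is background and was not measured here.

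Large losses also occurred near starts of further genes outside the germline list. The region near Tfpt (chromosome 7, 3628848 to 3629049, 11 CpGs), a subunit of the INO80 remodelling complex, had 16.2%, 4.70% and 10.9% in the mutant, against 87.0%, 84.4% and 90.6% in the wild type. The region near Ppp1r3d, a glycogen-targeting phosphatase subunit (chromosome 2, 178413446 to 178413777, 25 CpGs), had 17.5%, 11.9% and 13.7% in the mutant, against 72.1%, 82.0% and 75.8% in the wild type. The region lies close to that of Sycp2. At Hopx, a homeodomain-only protein, the means were 21.1% in mutant and 75.6% in wild-type cells. The region at the histone gene H3f4 (49 CpGs) hardly varied between mutant replicates, at 22.2%, 22.0% and 22.1%, against 75.1%, 77.4% and 71.7% in the wild type.

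The regions with most CpGs lay mainly inside genes. The largest number, 138 CpGs in 1800 bp of Lingo3 (chromosome 10, 80834433 to 80836233), a leucine-rich repeat membrane protein, had 21.5%, 19.04% and 13.96% in the mutant, against 72.2%, 74.0% and 68.1% in the wild type. Jph2, a junctophilin of muscle membranes, had 26.9%, 22.3% and 22.1% in the mutant over 112 CpGs (chromosome 2, 163374674 to 163376842), against 57.8%, 59.3% and 53.9% in the wild type. Dact3, a Wnt signalling regulator, had 16.8%, 15.03% and 11.6% in the mutant over 93 CpGs (chromosome 7, 16885657 to 16886403), against 65.2%, 67.3% and 63.0% in the wild type. In these 3 long regions mutant replicate 3 was lowest, whereas replicate 1 was lowest in the mean over all dense regions. Other long regions had another order: replicate 2 was lowest at Rbmxl2 (119 CpGs) and replicate 1 at Gfi1 (97 CpGs). Over the 251 dense regions of 20 or more CpGs, replicate 1 was lowest in 91, replicate 2 in 68 and replicate 3 in 92.

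Nrtn, which encodes the growth factor neurturin, had 11.6%, 6.55% and 8.0% in the mutant over 78 CpGs (chromosome 17, 56751197 to 56751893), against 65.7%, 74.2% and 63.8% in the wild type. Begain, a synaptic scaffold protein at the edge of an imprinted domain, had 27.3%, 19.5% and 3.17% in the mutant over 77 CpGs (chromosome 12, 109033230 to 109034263), against 62.4%, 82.5% and 49.9% in the wild type. Begain varied widely in both genotypes and the genotypes did not overlap. The largest loss of all dense regions was in Apc2, a neuronal relative of the Wnt regulator Apc. Its 60 CpGs (chromosome 10, 80312447 to 80313492) had 11.2%, 11.5% and 5.51% in the mutant, against 86.9%, 90.1% and 87.9% in the wild type.

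Cilp2, a secreted protein of cartilage, held 11 dense regions with 185 CpGs in total (chromosome 8, 69881058 to 69886291). Over them the mean level was 3.32 ± 0.205% in mutant and 36.1 ± 3.04% in wild-type cells. Each mutant region mean lay between 0.256% and 5.52%, against 21.8% to 58.0% in the wild type. The wild-type level thus alternated between neighbouring stretches while the mutant stayed near the floor throughout. For example, 10 CpGs at 69881701 to 69881761 had 4.0%, 3.44% and 8.11% in the mutant, against 69.4%, 58.1% and 46.6% in the wild type, whereas 14 CpGs at 69881776 to 69881859 had 0%, 0.385% and 0.385% in the mutant, against 25.7%, 21.1% and 18.5% in the wild type.

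**Figure D5:**
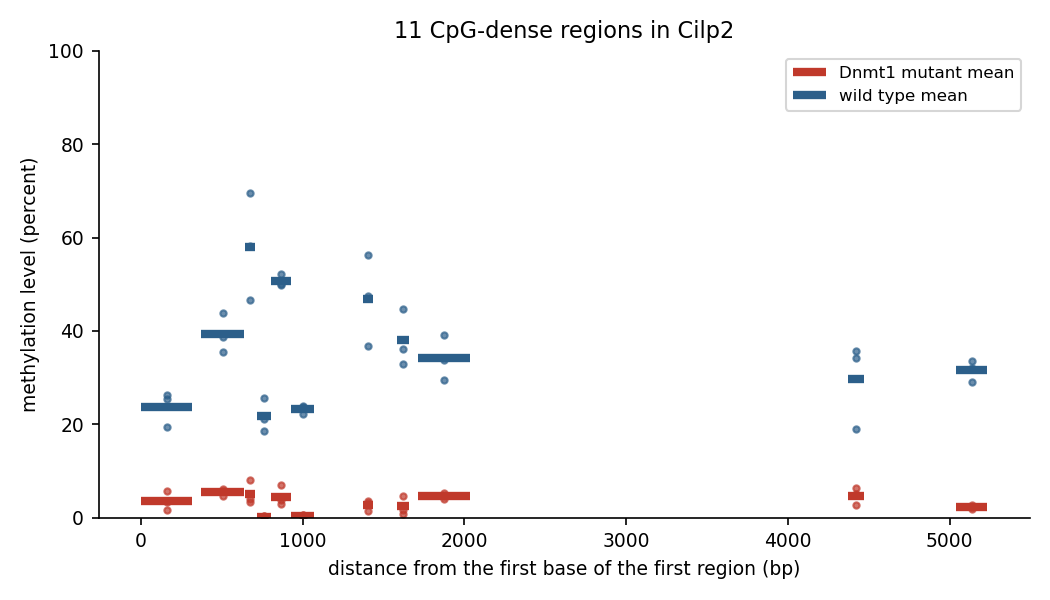
Methylation level (percent) of the 11 CpG-dense regions of Cilp2 by distance in bp from the first base of the first region. Thick bars span each region at the mean of the Dnmt1 mutant (lower, red) or wild type (upper, blue) and dots are the 3 replicates of each. Mutant means are at most 5.52%, while wild-type means run from 21.8% to 58.0%.

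Further genes with 3 or 4 dense regions, chosen here after their values were seen, spanned a wide range of mutant levels. Kcns1, a potassium channel subunit, had 5.07 ± 1.12% in the mutant over 4 regions and 38.7 ± 3.52% in the wild type. Bmp8b, a growth factor of the BMP family, had 2.497 ± 0.424% in the mutant over 3 regions and 33.7 ± 2.78% in the wild type. Znrf4, a testis ubiquitin ligase, had 11.5 ± 2.097% in the mutant over 4 regions and 45.1 ± 4.34% in the wild type. Mei1, needed for meiotic recombination, had 12.7 ± 2.42% in the mutant over 3 regions and 46.9 ± 2.24% in the wild type. In contrast the 3 regions of Gse1 kept 58.4 ± 3.38% in mutant and had 85.96 ± 1.56% in wild-type cells.

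The protocadherin alpha cluster on chromosome 18, cell adhesion genes whose alternative first exons are each used in few neurons, shared 11 regions that the list assigns to Pcdha1 and Pcdha2, with the other Pcdha genes sharing subsets. Over these 11 regions and 225 CpGs the level was 29.5 ± 2.46% in mutant and 58.5 ± 0.657% in wild-type cells. Single regions lay between 3.37% and 46.0% in the mutant, against 30.8% to 73.8% in the wild type. The exons are similar in sequence to each other, so the assignment of reads between them is uncertain. Of 27 junctional and adhesion cadherin genes, 9 (33.3%) had a dense region, among them Pcdha1 and Pcdha4, which share regions. Of all protein-coding genes 4.99% had one within their spans plus 5 kb. The cadherin genes are long, however, with a median span of 97522 bp, against 17149 bp over all protein-coding genes. The part of length in the count was not tested. At a start the count was 0 of 8, beside 0.858% of all protein-coding genes, in a promoter table without chromosome 18. With so few starts, nothing is read from this 0. Among classical and flamingo cadherins, Cdh22 had 23.8 ± 4.49% in mutant and 79.6 ± 9.02% in wild-type cells in its region of 13 CpGs, and Celsr1 had 1 ± 0.769% in mutant and 31.8 ± 6.27% in wild-type cells in its region of 16 CpGs. Each gene has another dense region with a higher mutant level: Cdh22 had 42.6 ± 9.01% in mutant and 82.2 ± 1.75% in wild-type cells over 10 CpGs, and Celsr1 had 65.7 ± 4.73% in mutant and 89.95 ± 3.03% in wild-type cells over 15 CpGs.

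Neuronal channel and synaptic genes had the highest count, 34 of 102 within their spans plus 5 kb. This share of 33.3%, beside 4.99% of all protein-coding genes, was the same as in the cadherin list. At a start the count was 1 of 68 (1.47%), Scn8a, beside 0.858% of all protein-coding genes. The neuronal genes had a median span of 95012.5 bp, far above the 17149 bp of all protein-coding genes. The part of span length in the count within spans was not tested. The median difference of the regions of the neuronal list was -33.6 points, beside -29.6 points over all dense regions. The calcium channel subunit gene Cacnb4 had 7.18%, 17.1% and 4.27% in the mutant over 12 CpGs (chromosome 2, 52619583 to 52619807), against 86.2%, 85.8% and 78.7% in the wild type. The pacemaker channel gene Hcn2 had 4.8%, 9.33% and 10.5% in the mutant over 16 CpGs (chromosome 10, 79728905 to 79729093), against 76.5%, 71.4% and 78.5% in the wild type.

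The blood lineage lists had up to 5 genes each with a dense region. The counts were 3 of 28 B lymphoid (10.7%), 3 of 28 T and NK (10.7%) and 5 of 24 granulocyte and monocyte genes (20.8%). They were 1 of 24 erythroid and megakaryocyte (4.17%) and 0 of 25 stem and multipotent progenitor genes, beside 4.99% of all protein-coding genes. Of 17 stromal and endothelial genes, cells that lineage depletion can leave, 0 had one. Prtn3 was counted only through a region shared with Elane. Median spans of the blood lineage lists ran from 4817.5 bp (granulocyte and monocyte) to 34054 bp (stem and multipotent progenitor), against 17149 bp over all protein-coding genes. The part of span length in these counts was not tested. Ikzf1, a transcription factor of lymphoid commitment, had 11.1%, 3.09% and 5.36% in the mutant 734 bp from its start (chromosome 11, 11685012 to 11685191, 12 CpGs), against 35.8%, 40.3% and 39.4% in the wild type. Ebf1, which specifies B cells, had 28.0%, 29.7% and 28.0% in the mutant in 1 of its intragenic regions (chromosome 11, 44741042 to 44741203, 10 CpGs), against 82.0%, 69.3% and 73.2% in the wild type. The T cell kinase gene Zap70 had adjoining regions of 32 and 16 CpGs with 38.9 ± 4.41% and 56.4 ± 2.81% in the mutant, against 68.8 ± 0.868% and 79.2 ± 1.45% in the wild type.

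Among myeloid genes, Gfi1, a repressor that guides granulocyte development, stood out by its length of 97 CpGs (chromosome 5, 107720185 to 107721980). It had 38.5%, 61.1% and 61.2% in the mutant, against 75.4%, 82.5% and 80.6% in the wild type, so replicate 1 was lowest in both genotypes. Mmp9, the gelatinase of neutrophils, had 30.8 ± 9.22% in mutant and 76.9 ± 3.09% in wild-type cells over 26 CpGs, and 2.59 ± 0.582% in mutant and 29.02 ± 6.92% in wild-type cells over another 28 CpGs. The region near Elane and Prtn3 is shared by both genes, and had 41.7 ± 5.17% in mutant and 71.9 ± 6.804% in wild-type cells over 10 CpGs. Elane had a further region of 17 CpGs with 63.9 ± 3.997% in mutant and 84.9 ± 1.06% in wild-type cells.

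Of 35 imprinted genes 4 (11.4%) had dense regions, beside 4.99% of all protein-coding genes. The imprinted genes had a median span of 30734 bp, against 17149 bp over all protein-coding genes. The part of span length in this count was not tested. The growth inhibitor Cdkn1c had 2 dense regions, with 12.5 ± 2.26% in mutant and 47.7 ± 2.07% in wild-type cells over 60 CpGs (chromosome 7, 143460259 to 143460955), and 18.3 ± 2.04% in mutant and 42.7 ± 6.61% in wild-type cells over 44 CpGs. Imprinted control regions carry methylation on 1 parental copy, so a wild-type level near the middle is usual for them. Parental copies were not separated here, and whether the Cdkn1c regions belong to a control region was not examined. Nnat and Mkrn3 had 37.6 ± 3.89% and 59.9 ± 3.88% in the mutant, against 64.97 ± 8.63% and 85.9 ± 0.841% in the wild type. Of 127 developmental transcription factors 8 (6.30%) had a dense region and 0 of 79 at a start, beside 0.858% of all protein-coding genes at a start, and the lowest was Tbx5, with 5.11 ± 1.72% in mutant and 60.04 ± 10.5% in wild-type cells. Of 24 genes of the methylation machinery, with a median span of 36286 bp, 3 (12.5%) had one. The part of span length was not tested in this count either. Near the start of Tet3, a methylcytosine oxidase, the levels were 30.6 ± 7.84% in mutant and 52.5 ± 3.88% in wild-type cells.

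Spread between replicates was also described within single dense regions. The largest mutant replicate was 20 or more points above the smallest in 103 dense regions (7.64%), and the largest wild-type replicate in 24 (1.78%). The SD over mutant replicates was above 10 points in 119 dense regions (8.83%), against 1145 of the other listed regions (3.36%). The median SD over mutant replicates was 4.67 points in dense and 4.23 points in other regions, and this order reversed without mutant replicate 2, with a difference of -0.284 in place of 0.435 points. The widest spread was in Irgc1, an interferon-inducible GTPase-like gene of the testis, where 3 adjoining regions moved together. Its largest, of 46 CpGs (chromosome 7, 24432446 to 24433002), had 68.5%, 72.0% and 23.8% in the mutant, against 90.1%, 92.4% and 91.2% in the wild type. The neighbours had 78.9%, 76.3% and 37.8%, and 72.5%, 75.9% and 35.1% in the mutant, against 91.0%, 90.9% and 92.1%, and 87.9%, 89.8% and 87.9% in the wild type. Low levels were therefore found in mutant replicate 3 alone in each of these regions, over 87 CpGs in total.

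Mutant replicate 3 was also the low one in Panx2, a pannexin channel, with 43.3%, 48.3% and 9.97% in the mutant (31 CpGs), against 87.1%, 80.9% and 71.0% in the wild type. In Dscam, a neuronal adhesion gene, the order was the opposite, with 23.8%, 41.1% and 58.9% in the mutant (18 CpGs), against 89.8%, 91.4% and 89.5% in the wild type. Near Mapk6 the values were 33.0%, 66.9% and 79.1% in the mutant, against 85.3%, 84.2% and 88.1% in the wild type. Different regions were thus low in different mutant replicates.

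On chromosome X 9 of 28 listed regions were dense and on chromosome Y 3 of 10, whereas the share on the autosomes ran from 2.70% on chromosome 6 to 5.36% on chromosome 7. Of those on X, Bcor, a transcriptional corepressor, had regions with 3.30 ± 3.30% and 11.2 ± 6.30% in the mutant, against 34.6 ± 5.72% and 58.6 ± 6.81% in the wild type. The region at the start of Rhox13, a homeobox gene of the testis, had 51.7%, 63.2% and 75.8% in the mutant, against 88.1%, 92.6% and 89.2% in the wild type. Methylation on X can depend on the sex of the animals, which the labels do not give.

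Values on both sides of the density limit are given as a description. Just inside, at 5 CpGs per 100 bp, the region in Pvrl1 had 55.2%, 48.7% and 47.7% in the mutant, against 80.3%, 92.3% and 87.2% in the wild type, and that in Btbd11 had 54.9%, 55.3% and 57.3% in the mutant, against 88.7%, 91.8% and 85.7% in the wild type. Just outside, at 4.99, the region near Fbrsl1 had 27.5%, 28.3% and 28.8% in the mutant, against 48.7%, 46.6% and 54.2% in the wild type.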

How the data were processed

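Whole-genome methylation sequencing was done on 12 samples, 6 per genotype, paired-end at 100 bp, per the labels' protocols: for each of 3 replicate numbers, 1 library with a bisulfite kit (TruSeq) and 1 with an enzymatic kit (NEBNext). Both libraries of a number point to 1 column in the labels, so 6 columns were analysed. Neither the aligner, nor the methylation caller, nor any merging of kits is given in the sources used here. Coordinates are on mm10, per the submitters' processing notes.

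The authors deposited levels as a fraction (multiplied here to percent) and metilene lists with group means as a fraction, the difference of those means, the distance to a gene in bp (both signed, and recorded here under the unit class score), a q-value and an adjusted p-value. In all 8088 level values of the dense regions (tolerance 0.02), level in percent times the number of CpGs minus 1 was whole, so the deposited levels are plain means of whole-percent CpG values that are not weighted by coverage and leave out 1 CpG. No counts are given, so depth is unknown and no coverage minimum, interval or floor was applied. The deposited group means differed from the replicate means by up to 6.96 points. No column of another sample was used. No 2 columns were closer than a median absolute difference of 2.44 points.

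Density was the number of CpGs over end minus start. Region coordinates are the authors' own: in the promoter windows the first CpG began 2 bases after the start in 403 of 403 regions. Starts and promoter sequences came from RefSeq (GRCm38.p6), without chromosome 18. Members and the 12 gene lists were chosen with earlier results of these data known. limma 3.58.1 in R 4.3.3 was run on percent levels of all 107115 candidate regions with Benjamini-Hochberg adjustment at 0.05 and checked on simulated data. The dense-minus-other level was compared by an exact two-sided permutation test. Named regions were the first 10 by CpG number, loss, density, smallest loss, mutant SD and loss at gene starts, the 10 genes with most dense regions, up to 4 per gene list, and those next to the limit. A selection of them is printed, some regions that the rule took are not reported here, and others are named as chosen after their values were seen. Alternatives concerned averages, scales, density limits, region size, windows and left-out replicates. Python 3.11.15, numpy 2.4.6, pandas 2.3.3 and matplotlib 3.10.9 were used.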

Additional observations from a re-analysis of the deposited data

How the results depend on the processing

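The mean loss over dense regions was -33.9 points when weighted by CpG number and -37.1 points when medians over regions replaced means. It was -32.3 points from the authors' deposited group means and lay between -32.9 and -31.9 points when single replicates were left out. The extra loss kept its direction under every alternative run, from -2.24 to -7.11 points, and on the relative scale it was -7.90% of the wild-type level. With density limits of 4, 6 and 8 CpGs per 100 bp it was -3.92, -4.69 and -4.58 points. Without single replicates it lay between -4.90 and -3.49 points. With 1 region per group within 1 kb, an alternative chosen after seeing the data, it was -4.13 points, and with the second deposited CpG number, likewise chosen afterwards, -4.22 points. limma called between 1342 and 1348 dense regions in all settings. The SD difference of 0.435 points was 0.982 points at mutant levels of 20 to 80% and 0.867 points with replicates centred first. It lay between -0.284 and 0.521 points without single mutant replicates, and reversed without mutant replicate 2. The cause was not tested. The position differences moved by less than the spread between replicates with windows of 500 bp and 2 kb.

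Replicate numbers are shared between genotypes, and whether they pair the samples could not be decided. Deviations of same-numbered columns correlated at 0.0372, 0.00489 and 0.04998. Correlations this small, from 3 columns per genotype, neither show nor exclude a pairing. With the replicate block, limma called 1348 dense regions, the mean difference was -32.4 points and the extra loss -4.21 points. Every mutant column correlated best with its own number, but mutant replicate 2 only by 0.00489 against 0.00379 with wild-type replicate 3. Nothing is read from this order. Depth could not be examined, since no counts accompany the levels.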
